A study of Mus musculus with 36 samples.

Results

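Irf8, Bcl6, Rbpj and Id2 are 4 mouse genes whose products hold back the formation of osteoclasts, the cells that resorb bone. They were chosen by name, as known transcriptional repressors of osteoclast formation, and all 4 were found among the 30205 genes that carried counts. For each gene the estimated counts and the TPM values of its annotated transcripts were added up in each of 36 RNA-seq libraries. The libraries come from 20-week-old mice of 2 genotypes, wild-type control (WT) and Mir324-null (null), which lack the gene of the microRNA miR-324. Bone marrow macrophages (BMM), the precursors of osteoclasts, were kept for 5 days in 30 ng/mL of M-CSF, which sustains macrophages. The cultures labelled osteoclasts (OC) received the same M-CSF and, for these 5 days, also 50 ng/mL of RANK-L, the cytokine that induces osteoclasts. The bone-forming osteoblasts (OB) grew out of bone chips and spent 18 days in osteogenic medium. Each of the 6 groups (WT BMM, null BMM, WT OC, null OC, WT OB, null OB) had 6 libraries, with 14118972 to 26347581 counts each. The labels do not say whether the libraries of a group came from separate mice, so p-values measure the spread between these libraries only. They also do not say in which cells the Mir324 gene was removed. Mir324 expression was not analysed here, and the genotypes are taken from the labels alone.

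An osteoclast precursor keeps its fusion and bone-resorption genes off through transcription factors that bind them directly or that sequester an activator. IRF8 is an interferon regulatory factor of the macrophage lineage that binds and restrains NFATc1, the main activator of osteoclast genes. BCL6 is a zinc-finger repressor that occupies promoters of osteoclast genes and recruits corepressors. RBPJ is the DNA-binding protein of the Notch pathway, which represses its targets when no Notch fragment is bound. ID2 has no DNA-binding domain of its own and pairs with basic helix-loop-helix factors, which it keeps off DNA. RANK-L is known to lower several of these repressors through PRDM1 (also called BLIMP1), itself a repressor, and through DNA methylation by DNMT3A.

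In GRCm38 (GENCODE M21), Irf8 lies on chromosome 8 from 120736358 to 120756694 on the plus strand. Bcl6 lies on chromosome 16 from 23965052 to 23988852 on the minus strand. Rbpj spans chromosome 5 from 53466152 to 53657362 on the plus strand, and Id2 chromosome 12 from 25093799 to 25097140 on the minus strand.

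The null mice lack miR-324, whose arms pair with targets through bases 2 to 8, the seed. The mature sequences (RefSeq, GRCm38.p6, chr11:70012060-70012082 and chr11:70012095-70012114, plus strand) are shown with the seed in capitals, which was used to search the members for matching sites:
mmu-miR-324-5p: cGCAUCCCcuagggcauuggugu
mmu-miR-324-3p: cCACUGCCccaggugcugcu
Within the longest annotated 3′ UTRs, Irf8 held 1 site for the miR-324-5p seed (GGGATGC) and Rbpj held 2 for that of miR-324-3p (GGCAGTG). Bcl6 and Id2 held 0 of either. Over 21037 genes with an annotated 3′ UTR, 7.387% held the first site and 12.67% the second. These shares do not take the length of the UTR into account. The Irf8 match covers bases 135 to 141 of a UTR of 1519 bases, and the Rbpj matches cover bases 848 to 854 and 2852 to 2858 of 3742. A match to the seed is no evidence of targeting, and the part of these sites in the genotype differences was not tested. The matches are in capitals, read from the transcript strand:
Irf8 site: ccggaagcccacagaGGGATGC
Rbpj first site: cctttctgagttcatGGCAGTG
Rbpj second site: ccgctcttaaactgtGGCAGTG

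The promoters of the members were searched on both strands in the RefSeq windows from 250 bases before to 50 bases after each annotated start (7 windows in all, GRCm38.p6). The motifs were the STAT site GAS (TTCNNNGAA, in 8.298% of 32851 promoters), the BCL6 site (TTCCTNGAA, 1.589%), an interferon response element (GAAANNGAA, 8.56%), an ETS-IRF composite site (GGAANNGAA, 8.243%), the RBPJ site (TTCCCAC, 6.383%) and the E-box (CANNTG, 72.31%). Every match of the BCL6 letters is also a GAS match. The window at the start of the main Irf8 transcript held 2 GAS matches, at -171 and -153, and 1 RBPJ match at +36. The window at the start of the main Bcl6 transcript held 1 GAS match at -118. A second annotated Bcl6 start had 3 GAS matches, at -168, -122 and -88, of which the first is also a match of the BCL6 letters, and 1 ETS-IRF match at -28. The 2 windows of Rbpj, the single one of Id2 and the second one of Irf8 held no match other than E-boxes. The 3 windows are printed because the 2 genes they belong to were the members with the largest genotype difference in OC. Capitals mark the matches other than E-boxes:
Irf8, chr8:120736108-120736407, plus strand: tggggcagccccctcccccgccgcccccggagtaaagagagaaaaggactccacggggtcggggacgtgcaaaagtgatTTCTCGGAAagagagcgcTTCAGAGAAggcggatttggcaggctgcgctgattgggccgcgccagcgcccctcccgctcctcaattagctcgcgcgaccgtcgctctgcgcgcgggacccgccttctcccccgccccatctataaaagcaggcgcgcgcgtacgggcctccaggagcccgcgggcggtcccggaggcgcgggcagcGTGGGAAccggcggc
Bcl6 main start, chr16:23988803-23989102, minus strand: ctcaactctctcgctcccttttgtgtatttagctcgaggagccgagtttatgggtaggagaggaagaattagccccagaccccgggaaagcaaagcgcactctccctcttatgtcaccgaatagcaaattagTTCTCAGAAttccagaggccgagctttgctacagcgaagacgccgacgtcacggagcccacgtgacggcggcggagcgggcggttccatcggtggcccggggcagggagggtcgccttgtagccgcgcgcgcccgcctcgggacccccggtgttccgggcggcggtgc
Bcl6 second start, chr16:23981234-23981533, minus strand: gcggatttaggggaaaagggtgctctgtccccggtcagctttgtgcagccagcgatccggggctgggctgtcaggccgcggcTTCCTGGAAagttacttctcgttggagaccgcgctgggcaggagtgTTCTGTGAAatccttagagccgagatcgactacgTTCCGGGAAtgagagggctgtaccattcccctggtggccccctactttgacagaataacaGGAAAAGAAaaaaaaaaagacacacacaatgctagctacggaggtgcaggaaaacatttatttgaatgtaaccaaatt
A match of letters is a description of the window and no evidence of binding.

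The labelled cell types were checked against markers. The 5 osteoclast markers (Ctsk, Acp5, Ocstamp, Calcr, Mmp9) had a median sum of 28250 CPM in the WT and 422.8 CPM in the null OC libraries, against 16.19 and 227.0 CPM in WT and null BMM. CPM here is the count scaled to a common library size with TMM factors. The higher sum in null BMM was not shared by all 5 markers. Of the 4 that could be tested there, 2 were higher and 1 lower in null (edgeR adjusted p under 0.05). Their log2 fold changes ranged from -0.964 to 9.146. Calcr had at most 3 counts in every null OC library, so the null cultures labelled osteoclasts went against their label in these markers, and "null OC" below means null cultures given RANK-L. The OB cultures expressed osteoblast markers (medians of 47050 and 86950 CPM in WT and null) but also macrophage markers (2492 and 1862 CPM) and osteoclast markers (4404 and 5135 CPM). Neutrophil markers, at most 0.3239 CPM in sum in the WT BMM and OC libraries, reached 5.63 to 17.29 CPM in the null ones, with S100a9, Ly6g, Elane, Ngp and Ltf at 3 counts or fewer in every library. Their part in the results was not tested. In bulk RNA, fewer cells of a type and less RNA per cell cannot be told apart.

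Compared per length, in mean deposited TPM of WT BMM, Id2 was the most abundant of the 4 at 611.6, followed by Irf8 at 202.9, Rbpj at 65.25 and Bcl6 at 6.726. Id2 stood at the 98.94th percentile of the 18443 genes with a value above 0 in that group, and Bcl6 at the 57.33rd. In WT OC the order of the middle pair was the reverse, with Rbpj at 44.53 and Irf8 at 26.40 TPM. In null OC Irf8 averaged 140.0 TPM and Rbpj 47.75, the order seen in BMM.

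**Figure D1:**
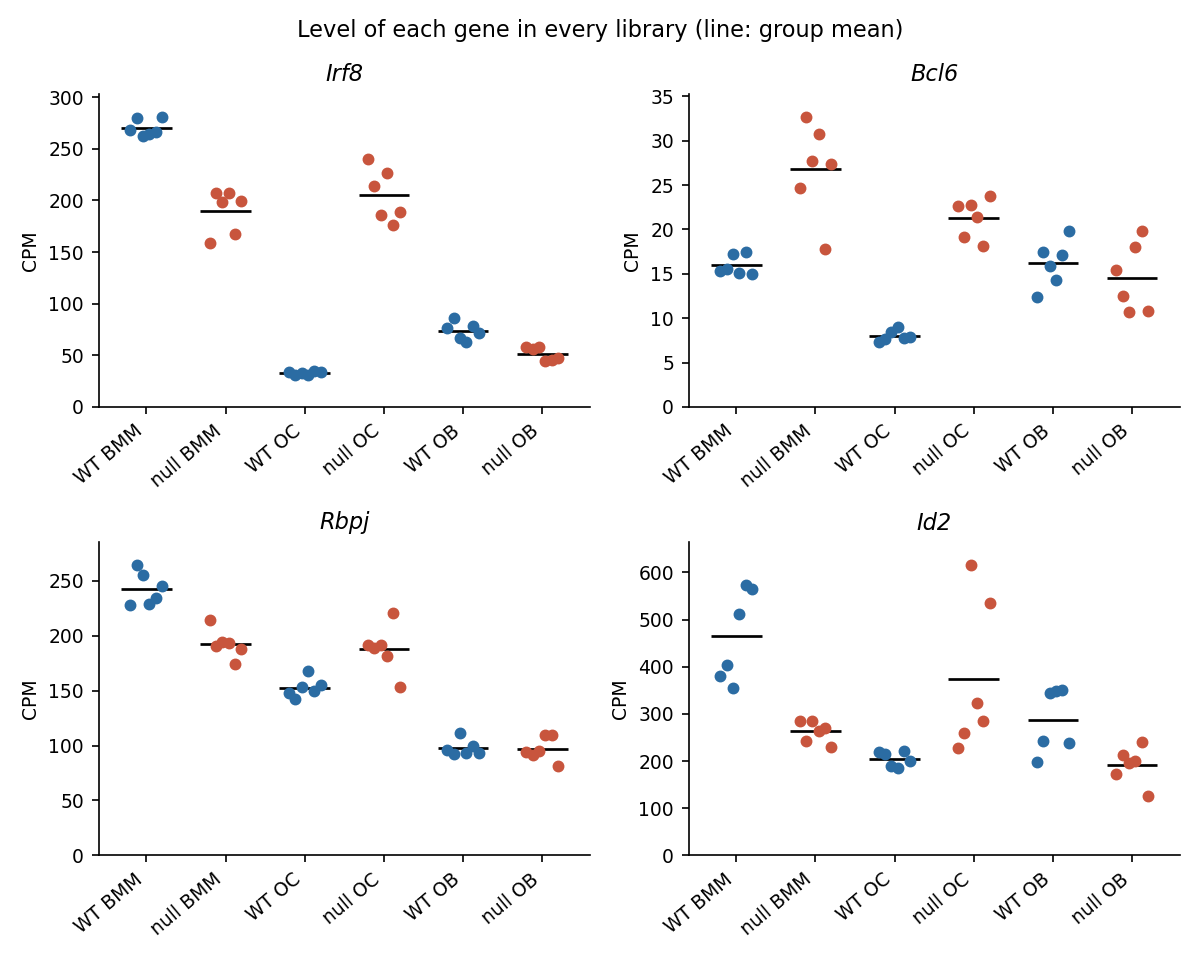
CPM (y axis, linear from 0) of Irf8, Bcl6, Rbpj and Id2 in each of the 36 libraries, by group on the x axis; points are libraries, blue for WT and red for null, and lines are group means. Irf8 in the 6 WT OC libraries lies between 30.84 and 34.55 CPM, below every library of the other 5 groups, and Id2 in null OC has 2 libraries far above the other 4.

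The first comparison asked how the repressors respond to RANK-L in WT cells, in a joint fit of the 24 BMM and OC libraries. All 4 fell in WT OC, where 30.1% of the 12661 genes tested were called lower and 30.4% higher (edgeR quasi-likelihood test, Benjamini-Hochberg adjusted p under 0.05, the threshold used throughout). Their median log2 fold change was -1.09, against -0.003 over all genes tested. Statements below that the groups of a member did not overlap refer to CPM. The share of all genes whose groups lay apart in this way was not computed.

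Irf8 ranged from 262.7 to 281.1 CPM in WT BMM, with a median of 267.5, and from 30.84 to 34.55 in WT OC, with a median of 33.49. The groups were far apart and each was tight, with a coefficient of variation of 2.94% and 4.62%. The mean was 8.21 times higher in BMM (log2 fold change -3.04, SE 0.08, edgeR adjusted p 5.10e-22).

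Bcl6 had a low level throughout. Its lowest, median and highest values were 15.01, 15.41 and 17.51 CPM in WT BMM and 7.308, 7.805 and 8.964 CPM in WT OC, so the groups did not overlap. The log2 fold change was -1.002 (SE 0.11, edgeR adjusted p 1.17e-08).

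Rbpj had 228.5, 239.9 and 264.3 CPM in WT BMM and 142.1, 151.4 and 168.0 in WT OC as the lowest, median and highest library. Every WT OC library lay below every WT BMM library, and the change, -0.67 (SE 0.07, edgeR adjusted p 1.21e-09), was the smallest of the 4.

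Id2 had 355.4, 458.1 and 572.6 CPM in WT BMM and 185.6, 207.4 and 221.9 in WT OC. The WT BMM libraries lay in 2 ranges, replicates 1 to 3 from 355.4 to 403.4 CPM and replicates 4 to 6 from 512.8 to 572.6, both above WT OC. The fall was -1.19 (SE 0.19, edgeR adjusted p 7.71e-06).

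In null cells the same comparison found little change, with 6.78% of genes called higher and 6.07% lower. Of the 4 members only Bcl6 was called, lower in null OC, and that call depended on the setting and on single libraries. Irf8 ranged from 158.3 to 207.3 CPM in null BMM (median 198.9) and from 176.5 to 240.3 in null OC (median 201.1). These ranges overlapped, and the log2 fold change was 0.12 (SE 0.07, edgeR adjusted p 0.259). On the log2(TPM + 1) scale with limma it was 0.28 and past the threshold (adjusted p 0.0389). Rbpj was at a median of 192.4 CPM in null BMM and 190.1 in null OC (-0.03, SE 0.07, edgeR adjusted p 0.810).

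Bcl6 ranged from 17.75 to 32.70 CPM in null BMM and from 18.08 to 23.72 in null OC, also overlapping (-0.33, SE 0.11, edgeR adjusted p 0.0452). With any 1 of the 24 libraries removed, the call was lost in 17 cases, as without null BMM replicate 2 (-0.26, adjusted p 0.133). It was also lost with the replicate number as a block (-0.32, adjusted p 0.0647), without the filter on low counts, on the TPM scale and with an average-length offset. It held with RLE scaling (adjusted p 0.0476), a mean-count filter (0.0434), DESeq2 (0.0297), voom (0.0336) and the lowess length offset without and with the block (0.0303 and 0.0439).

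Id2 ranged from 230.7 to 285.7 CPM in null BMM. In null OC its values were 228.7, 259.6, 615.3, 322.6, 285.0 and 535.1 CPM in replicates 1 to 6, so replicates 3 and 6 were high and the other 4 reached at most 322.6. The log2 fold change, 0.52 (SE 0.19, edgeR adjusted p 0.0699), was 0.07 without replicates 3 and 6 (adjusted p 0.743). With 1 library left out it passed in 3 of 24 fits, those without null OC replicate 1, 2 or 5 (edgeR adjusted p 0.0275, 0.0469 and 0.0461). It also passed with the lowess length offset without the block.

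The difference between genotypes in the response to RANK-L was itself tested as an interaction. It was past the threshold for all 4 members, each with the more positive effect in OC, where 25.3% of genes were called in that direction and 26.1% in the other. The difference of log2 fold changes was 3.16 for Irf8 (SE 0.11, edgeR adjusted p 4.44e-19), 1.70 for Id2 (SE 0.27, edgeR adjusted p 9.23e-06), 0.68 for Bcl6 (adjusted p 6.51e-04) and 0.64 for Rbpj (adjusted p 2.02e-06). The Id2 value was 1.25 without null OC replicates 3 and 6.

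**Figure D2:**
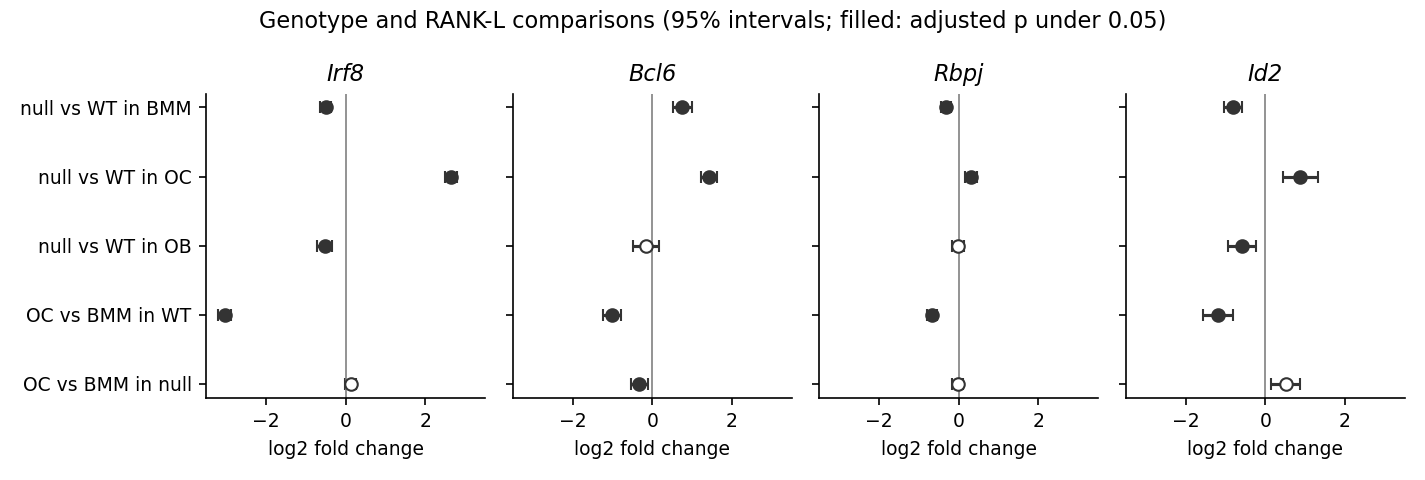
Log2 fold changes (x axis) of the 4 genes in 5 comparisons (rows), with 95% intervals from the edgeR fits; filled points have an adjusted p under 0.05. All 4 genes are below 0 in WT OC against WT BMM and above 0 in null against WT OC, and Irf8, Rbpj and Id2 are below 0 in null against WT BMM.

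The genotypes were then compared within each cell type. The WT OC libraries enter both this comparison and the response to RANK-L in WT, so the 2 sets of values are not independent. In OC all 4 members were higher in null, where 32.4% of the 12121 genes tested were called higher and 33.1% lower. Their median log2 fold change was 1.15, against -0.025 over all genes.

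Irf8 in null OC (176.5 to 240.3 CPM) was 6.23 times its mean in WT OC (30.84 to 34.55 CPM), with a log2 fold change of 2.65 (SE 0.08, edgeR adjusted p 3.42e-14). The 6 null OC libraries all lay below the lowest WT BMM library. The summed macrophage markers (Csf1r, Adgre1, Cd68, Mrc1, Fcgr1) were also higher in these cultures, from 8987 to 12370 CPM in null OC and from 4529 to 4974 in WT OC, with 3 of the 5 called higher and 1 lower. Their part in the Irf8 difference was not tested.

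Bcl6 ranged from 18.08 to 23.72 CPM in null OC, with a median of 22.03, and from 7.308 to 8.964 in WT OC. The groups did not overlap, and the log2 fold change was 1.42 (SE 0.10, edgeR adjusted p 1.55e-09). Null OC also lay above the 15.01 to 17.51 CPM of WT BMM.

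Id2 in null OC was above WT OC in 6 of 6 libraries in CPM, with a log2 fold change of 0.88 (SE 0.22, edgeR adjusted p 0.00361). In deposited TPM the groups overlapped, at 282.1 to 738.5 in null OC and 270.6 to 307.9 in WT OC. On the log2(TPM + 1) scale the log2 fold change was 0.57 (limma adjusted p 0.0122). The mean was 374.4 ± 160.6 CPM (SD, n = 6) against 205.1 ± 15.84. Without null OC replicates 3 and 6 the mean was 274.0 ± 39.75 CPM (n = 4) and the log2 fold change 0.44 (adjusted p 2.10e-04). They are the shallowest of the group, with 14638162 and 14118972 counts. Replicate 6 also had the highest sums of osteoblast markers (218.6 CPM, the others 44.54 to 77.10) and of endothelial markers (266.1 CPM, the others 98.80 to 197.0). Bglap and Sp7 of the osteoblast markers and Emcn and Tek of the endothelial ones had 3 counts or fewer in every null OC library. The sum of T, NK and innate lymphoid markers was highest in replicates 3 and 6 (48.23 and 63.57 CPM, the others 37.62 to 43.10), with Cd3e, Cd3g and Ncr1 at 3 counts or fewer, and the macrophage sum was lowest there (9213 and 8987 CPM, the others 10590 to 12370). The lymphoid sum was 41.15 to 57.86 CPM in WT BMM and 19.54 to 22.92 in WT OC. Whether these sums reflect other cells, and their part in the Id2 values, was not tested.

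Rbpj showed the smallest difference. It ranged from 153.6 to 220.4 CPM in null OC, with a median of 190.1, and from 142.1 to 168.0 in WT OC, so 1 null library, replicate 6, lay inside the WT range. The log2 fold change was 0.31 (SE 0.07, edgeR adjusted p 0.00122). On the log2(TPM + 1) scale it was 0.09 and no longer past the threshold (adjusted p 0.428). That scale moves all genes, with a median log2 fold change of -0.20 in OC, -0.12 in BMM and 0.14 in OB, and Rbpj stood 0.29 above the median of all genes there. With TPM, 2593 genes were called higher and 5458 lower in null OC, against 3928 and 4018 with counts. In BMM the split was 2029 and 4105, against 3217 and 3024, and in OB 4073 and 957, against 2115 and 2305.

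In BMM, without RANK-L, 3 members were lower in null cells and Bcl6 was higher, where 27.0% of the 11925 genes tested were called higher and 25.4% lower. Irf8 was at 158.3 to 207.3 CPM in null and 262.7 to 281.1 in WT, with no overlap (log2 fold change -0.50, SE 0.07, edgeR adjusted p 1.96e-05). The summed macrophage markers had the opposite order, 10630 to 12270 CPM in null BMM and 7011 to 7898 in WT BMM, although only Adgre1 of the 5 was called higher and Cd68, Mrc1 and Fcgr1 were called lower. Id2 was at 230.7 to 285.7 against 355.4 to 572.6 CPM (-0.81, SE 0.12, adjusted p 3.09e-05), and Rbpj at 174.1 to 214.3 against 228.5 to 264.3 CPM (-0.32, SE 0.06, adjusted p 4.47e-04). These groups did not overlap either. Bcl6 ranged from 17.75 to 32.70 CPM in null and from 15.01 to 17.51 in WT, a difference of 0.76 (SE 0.12, adjusted p 7.66e-05) in the direction opposite to the other 3. Null replicate 5, the lowest, sat just above the WT range. In deposited TPM this library lay inside the WT range, at 7.099 against 6.149 to 7.448.

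In OB, 15.5% of the 13607 genes tested were called higher in null and 16.9% lower. Irf8 and Id2 were called lower and no member was called higher. Irf8 was at 44.03 to 58.22 CPM in null and 63.32 to 86.13 in WT, with no overlap (log2 fold change -0.53, SE 0.09, edgeR adjusted p 4.94e-04). The summed macrophage markers were also lower in null OB, 1809 to 2120 CPM against 2248 to 2725, with 4 of the 5 called lower. Their part in the Irf8 difference was not tested.

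Id2 in OB ranged from 126.2 to 240.0 CPM in null and from 197.3 to 351.5 in WT, overlapping, with a log2 fold change of -0.59 (SE 0.18, edgeR adjusted p 0.0244). With any 1 of the 12 libraries removed, this call was lost in 4 cases: WT OB replicates 3, 4 and 5 (adjusted p 0.0525, 0.0548 and 0.0545) and null OB replicate 1 (0.0514). It was also lost on the TPM scale (-0.40, adjusted p 0.0691) and with an offset for each library's trend with transcript length (-0.40, adjusted p 0.173). Bcl6 (10.68 to 19.83 CPM in null, 12.43 to 19.80 in WT; -0.16, SE 0.16, adjusted p 0.503) and Rbpj (81.77 to 110.0 and 92.43 to 111.2 CPM; -0.02, SE 0.08, adjusted p 0.9) overlapped and did not pass. With the length offset the Rbpj difference was -0.28 and past the threshold (adjusted p 0.0127).

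The genotype effects were compared between cell types in a fit of all 36 libraries. Between OB and OC all 4 members differed, each more negative in OB, where 27.4% of 14268 genes were called in that direction and 27.8% in the other. The differences were -3.16 for Irf8, -1.57 for Bcl6, -1.45 for Id2 and -0.31 for Rbpj (edgeR adjusted p 0.00893); on the TPM scale the Rbpj difference was 0.07 and did not pass. Between OB and BMM, 21.6% of genes were more positive in OB and 24.3% more negative. Bcl6 was more negative in OB (-0.90, edgeR adjusted p 1.67e-04) and Rbpj more positive (0.32, adjusted p 0.00834), although with the length offset the Rbpj value was -0.08. Irf8 (-0.01, adjusted p 0.964) and Id2 (0.24, adjusted p 0.497) did not pass; on the TPM scale the Irf8 value was 0.46 and did (adjusted p 0.00671).

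Over the 6 groups the levels can be ordered, with neighbours compared by a two-sided exact permutation test of mean log2(CPM + 0.5) and adjusted over the 20 pairs of neighbours. With 6 against 6 libraries the smallest p possible is 0.00216. The order for Irf8 was WT BMM, null OC, null BMM, WT OB, null OB and WT OC, and of its 5 pairs of neighbours only null OC and null BMM did not differ beyond their spread (adjusted exact p 0.378). For Bcl6 the order was null BMM, null OC, WT OB, WT BMM, null OB and WT OC. Null BMM and null OC (adjusted exact p 0.0945), WT OB and WT BMM (0.957) and WT BMM and null OB (0.378) did not differ beyond their spread. For Rbpj the order was WT BMM, null BMM, null OC, WT OC, WT OB and null OB, and the pairs that did not differ were null BMM with null OC (adjusted exact p 0.714) and WT OB with null OB (0.845). For Id2 the order was WT BMM, null OC, WT OB, null BMM, WT OC and null OB, and only null BMM differed from the next group, WT OC (adjusted exact p 0.00541). Ordered on deposited TPM, null BMM and WT OC did not differ beyond their spread for Rbpj (adjusted exact p 0.579) or Id2 (0.318), and Irf8 was higher in null OC than in null BMM (0.0481).

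The annotated transcripts of the members were examined as a description, with no test; how reads of shared exons are divided between transcripts is an estimate of the authors' quantifier. Only 1 transcript of Id2 was listed in the deposited data, so its share was fixed in advance. Bcl6 was carried almost wholly by Bcl6-201, with a median share of 94.9 to 97.6% of the gene's TPM in the 6 groups. Irf8-201, which starts at the Irf8 window printed above, made up a median of 45.12% of the gene in WT BMM, against 49.11% in the WT and 48.27% in the null OC libraries. Its mean TPM was 90.14 for WT BMM, against 12.72 for WT OC and 68.0 for null OC. Irf8-205 had means of 53.34, 6.149 and 34.77 TPM in the same groups, so both transcripts were low in WT OC and the Irf8-201 shares were alike in these groups. In null BMM the median share of Irf8-201 was higher, at 53.82%. It ranged from 47.27 to 68.73% there and from 37.24 to 52.24% in WT BMM.

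The estimates of 2 Rbpj transcripts did not overlap between genotypes in 1 culture each. This was not particular to Rbpj. Irf8-205 in BMM (41.14 to 60.99 TPM in WT, 20.65 to 34.13 in null) and Bcl6-201 in OC (3.105 to 4.295 in WT, 7.222 to 8.887 in null) also lay apart. The share of all transcripts that lay apart was not computed. Rbpj-203 ranged from 45.05 to 54.61 TPM in WT BMM and from 16.30 to 34.36 in null BMM, and its median share was 75.41% and 55.74%. Rbpj-201 ranged from 7.191 to 9.845 TPM in WT OC and from 9.986 to 19.80 in null OC, with median shares of 18.04% and 39.77%. The closest libraries of the second pair were nearly level. In the other culture each transcript overlapped between genotypes: Rbpj-201 ranged from 7.117 to 14.94 TPM in WT BMM and from 11.49 to 23.01 in null BMM, and Rbpj-203 from 27.77 to 41.06 in WT OC and from 10.35 to 31.95 in null OC. In OB the Rbpj-203 means were 20.77 and 21.86 TPM.

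**Figure D3:**
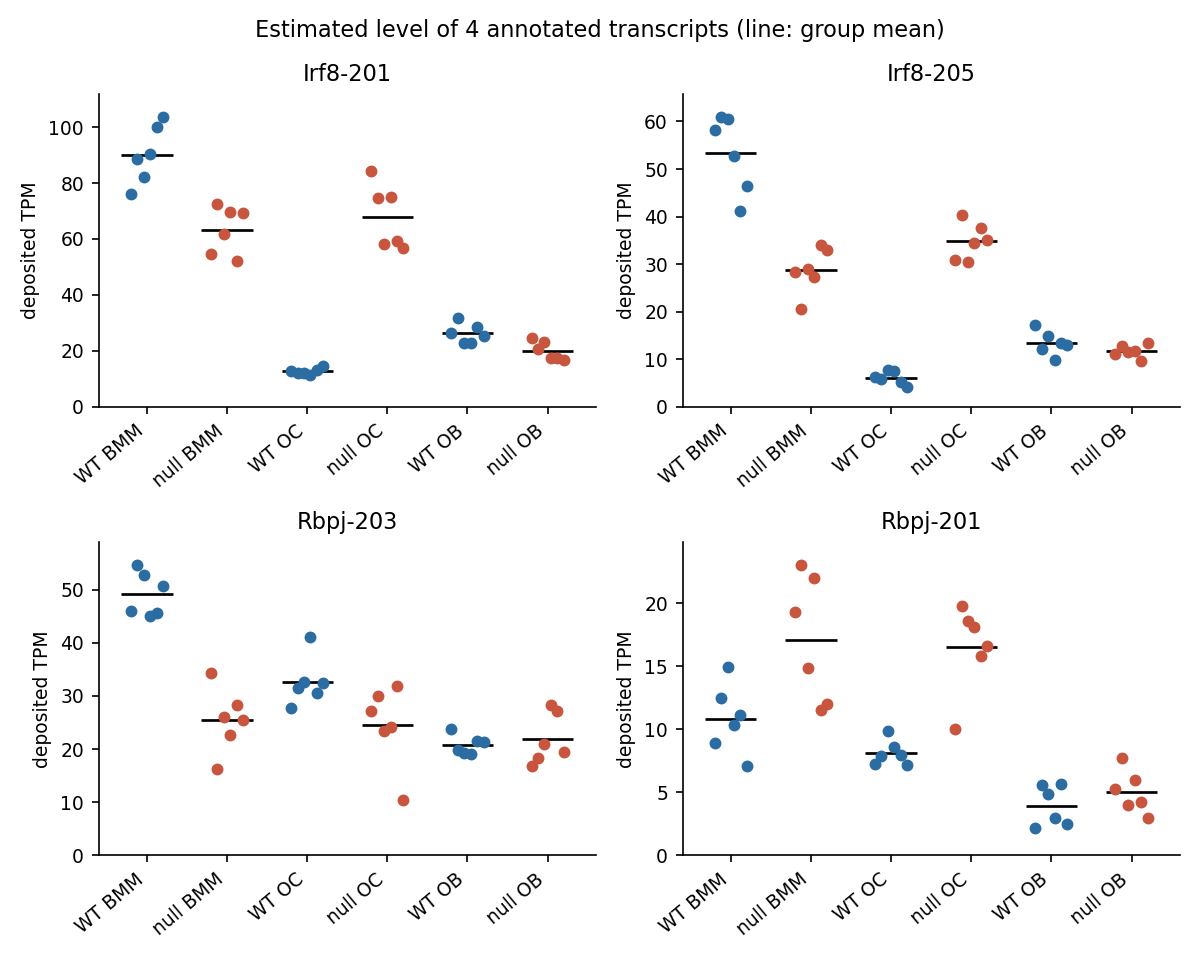
Deposited TPM (y axis, linear from 0) of Irf8-201, Irf8-205, Rbpj-203 and Rbpj-201 in the 36 libraries by group on the x axis; points are libraries, blue for WT and red for null, and lines are group means. Both Irf8 transcripts are lowest in WT OC, and Rbpj-203 is lower in null BMM (16.30 to 34.36 TPM) than in WT BMM (45.05 to 54.61).

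A list of possible upstream factors of the members was chosen by name. It held the DNA-binding repressor PRDM1, the DNA methyltransferase DNMT3A, the zinc-finger repressor ZBTB7A and the histone methyltransferase EZH2. Whether they lower the members in these cells was not tested. In WT, 3 of these 4 factors rose with RANK-L, with a median log2 fold change of 0.98. Prdm1 had 0.8584, 2.107 and 4.145 CPM in WT BMM and 44.59, 47.90 and 60.10 in WT OC as the lowest, median and highest library, far apart (4.39, SE 0.31, edgeR adjusted p 3.29e-12). Dnmt3a ranged from 127.5 to 151.8 CPM in WT BMM and from 414.5 to 486.7 in WT OC (1.62, SE 0.06, adjusted p 3.59e-19). Ezh2 rose by 0.34 (adjusted p 0.00557), and Zbtb7a had a value of 0.15 (adjusted p 0.149).

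In null cells none of the 4 was called between OC and BMM. Prdm1 ranged from 1.673 to 6.061 CPM in null OC and from 2.662 to 4.522 in null BMM, and Dnmt3a from 64.77 to 80.88 and from 70.86 to 77.29 CPM. Both pairs overlapped. Against WT OC, null OC was lower in Prdm1 (-3.55, SE 0.19, edgeR adjusted p 7.46e-11), Dnmt3a (-2.62, SE 0.06, adjusted p 3.34e-15) and Ezh2 (-0.28, adjusted p 0.0114), and higher in Zbtb7a (0.66, adjusted p 1.36e-07). In BMM, Dnmt3a was lower in null (-0.98, adjusted p 8.63e-10), and Zbtb7a and Ezh2 were higher (0.71 and 0.31). Both calls were lost on the TPM scale (0.08 and 0.07, limma adjusted p 0.664 and 0.674) and with the average-length offset (0.26 and 0.23, edgeR adjusted p 0.0826 and 0.204), and that of Ezh2 also with the replicate block (0.30, adjusted p 0.0912). In OB Prdm1, Dnmt3a and Zbtb7a were higher in null (1.04, 0.52 and 0.39) with Ezh2 at 0.01. Of the 4 factors, 2 were called higher in OB with the average-length offset and 2 with the lowess length offset. With the lowess offset and the replicate block 1 was called.

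The genes reported to be held down by 1 or more members were the osteoclast genes Nfatc1, Acp5, Ctsk, Dcstamp, Ocstamp, Oscar, Atp6v0d2 and Calcr. All 8 rose with RANK-L in WT, and all 8 were lower in null OC than in WT OC. The median log2 fold change was 8.87 for the first comparison and -7.28 for the second, with genes at 0 to 3 counts in every library of 1 group taken at their bound. Nfatc1, the activator bound by IRF8, ranged from 91.74 to 120.0 CPM in WT BMM and from 551.5 to 899.9 in WT OC. In null it ranged from 46.23 to 75.51 CPM in BMM and from 53.06 to 90.48 in OC, which overlap, and its difference between null and WT OC was -3.31 (SE 0.15, edgeR adjusted p 1.84e-11). In null, 5 of the 8 rose with RANK-L, among them Ctsk, the collagen-cleaving protease of the osteoclast, by 4.34 (adjusted p 1.06e-06). The count was 4 under 6 other settings, in which the call of Ocstamp (2.00, adjusted p 0.0388) was lost, for example with the replicate block (1.86, adjusted p 0.0608), and DESeq2 gave Ocstamp no adjusted p. Without null OC replicates 3 and 6 the count was 6. In BMM, where 5 of the 8 could be tested, Acp5 was higher in null (2.23) and Nfatc1, Ctsk and Atp6v0d2 were lower. In OB, Nfatc1, Ctsk and Atp6v0d2 were higher (0.76, 0.32 and 0.40) and none was lower.

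Other regulators that restrain osteoclast formation did not all follow the members. Of the 5 tested, 2 fell and 1 rose with RANK-L in WT, 3 were higher and 1 lower in null OC, and 2 were lower in null BMM; those described here are Klf2, Klf4, Id1 and Id3. The Kruppel-like factor gene Klf2 fell in WT OC (-0.81, edgeR adjusted p 7.34e-04) and was higher in null OC (0.73, adjusted p 0.00312), whereas Klf4 rose in WT OC (1.44, adjusted p 1.13e-06) and was lower in null OC (-0.58, adjusted p 0.00502). Id1 and Id3 are given with Id2 below. Klf2, Klf4, Id1 and Id3 were not called between genotypes in OB (log2 fold changes of -0.04, -0.15, -0.16 and -0.05).

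**Figure D4:**
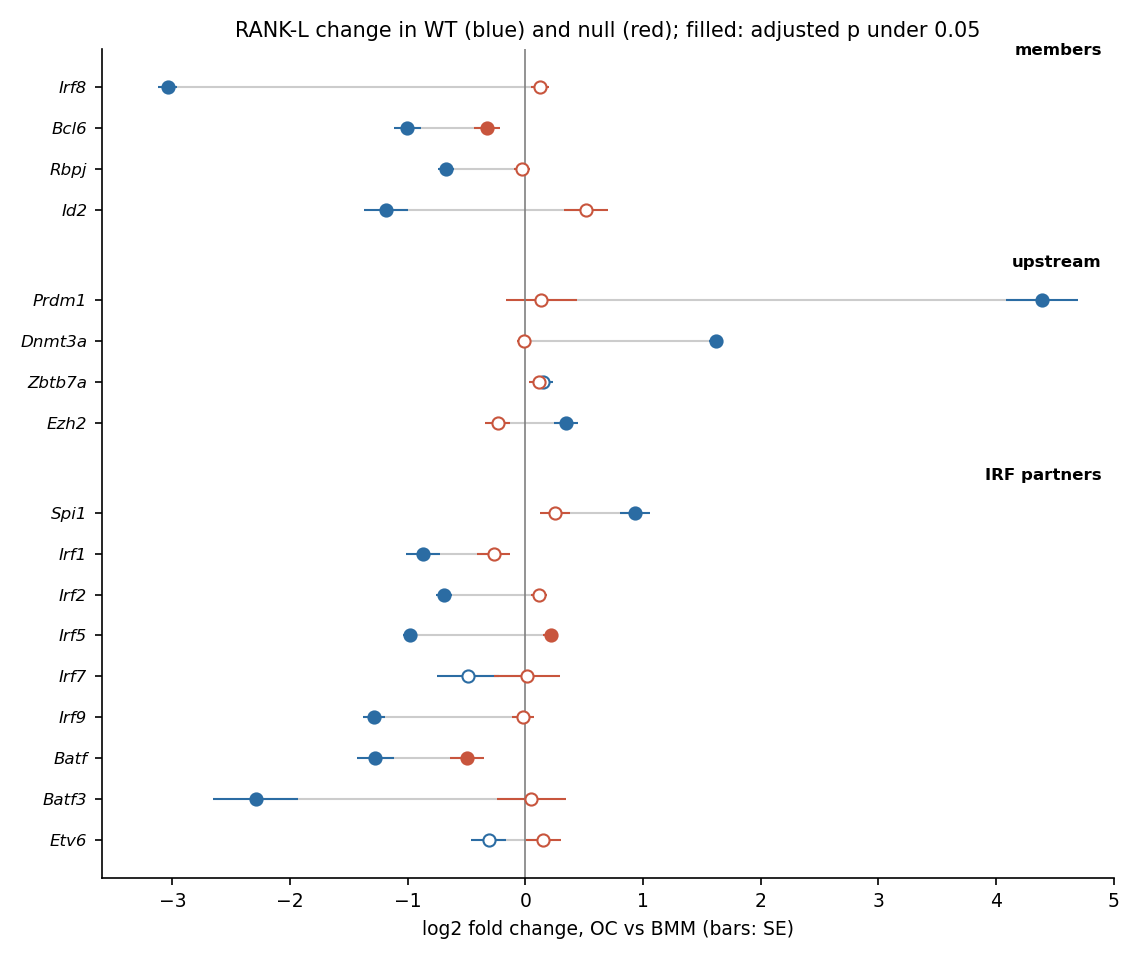
Log2 fold change of OC against BMM (x axis) in WT (blue) and null (red) for the 4 members, 4 upstream factors and the IRF family and partner genes (rows, headed IRF partners). Bars are SE and filled points have an edgeR adjusted p under 0.05. Irf8 (-3.04) and Prdm1 (4.39) are the members of their groups farthest from 0 in WT, and most null points lie near 0.

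IRF8 acts on many genes with partner proteins. A list of 10 genes held other members of the IRF family as well as partner proteins, and 9 could be tested (Irf4 could not). With RANK-L in WT, 6 fell and 1 rose, with a median of -0.87. Irf5, which encodes an interferon regulatory factor of inflammatory macrophages, fell by 0.98 (edgeR adjusted p 5.82e-14) and Irf9 by 1.28 (adjusted p 1.65e-12), while Spi1, encoding the ETS partner PU.1, rose by 0.93 (adjusted p 6.83e-07). Null OC was higher than WT OC in 7 of the 9, among them Irf5 (0.93) and Batf (1.93), and lower in Spi1 (-0.42) and Irf7 (-1.69). In BMM 2 were higher and 3 lower in null, and in OB 1 and 3.

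Cybb, which encodes the catalytic subunit of the phagocyte NADPH oxidase and is a known IRF8 target, ranged from 783.5 to 965.1 CPM in WT BMM and from 153.4 to 180.7 in WT OC. In null it ranged from 1912 to 2205 CPM in BMM and from 1487 to 1933 in OC. It was thus above WT in both cultures (1.23 in BMM and 3.41 in OC, SE 0.06 and 0.07), whereas Irf8 was below WT in BMM. Of the 4 IRF8-dependent macrophage genes tested between genotypes, Cybb among them, 2 were higher and 1 lower in null OC and 3 were lower in null OB. Klf4 was lower in null OC, Il18 was lower in null BMM (-0.95, edgeR adjusted p 2.22e-04), and Il12b could not be tested between genotypes. In OB Cybb and Il18 were lower in null (-0.32 and -0.46).

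BCL6 represses through corepressor complexes, of which Bcor, Ncor1, Sin3a and Hdac3 are described here. Of the 5 tested, 3 fell and 1 rose with RANK-L in WT, 3 were higher and 2 lower in null OC, and 4 were higher in null OB. With RANK-L in WT, Sin3a fell by 0.37 and Ncor1 by 0.30, Bcor rose by 0.79 and Hdac3 did not pass. Null OC was higher in Sin3a (0.39, edgeR adjusted p 0.00116) and Ncor1 (0.22, but -0.04 on the TPM scale) and lower in Hdac3 (-0.22) and Bcor (-0.46). In null BMM Bcor was higher (0.33) and Hdac3 lower (-0.18), and in null OB Bcor (0.51), Ncor1 (0.31) and Sin3a (0.22) were higher. Bcl6 is best known from germinal-centre B cells: Pax5 had at most 3 counts in every library, and the 7 B cell markers summed to at most 6.795 CPM in the BMM and OC libraries, but to 39.77 to 64.01 CPM in WT OB and 91.97 to 100.4 in null OB, where Ebf1 was the marker tested (0.85 higher in null).

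RBPJ is switched from repressor to activator by cleaved Notch receptors. Notch1 ranged from 25.70 to 39.88 CPM in WT BMM and from 3.470 to 5.670 in WT OC, and from 58.41 to 86.48 in null OC. The last 2 ranges were far apart (4.004, SE 0.14, edgeR adjusted p 1.99e-13), and null BMM was also above WT BMM (1.32, adjusted p 4.05e-08). Over the 8 receptors and ligands, of which 5 could be tested, 4 were higher in null OC, with Jag1 at 2.22, and Notch4 was lower (-1.44). In BMM 3 were higher and in OB 4, and none was lower. Of the 6 co-factors, Maml2, Maml1 and Snw1 were higher and Maml3 lower in null OC, with Maml2, a coactivator of the Notch complex, at 2.29 and Maml3 at -1.94. The 7 Notch target genes were too low to be tested in BMM and OC, at no more than 0.5602 CPM in any of these libraries, and were not compared there. In OB 4 could be tested and Heyl was higher in null (1.02, adjusted p 0.0484).

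ID proteins act by binding E proteins. Id1 in null OC was at 8.006, 9.167, 41.46, 16.42, 10.51 and 31.00 CPM in replicates 1 to 6, and Id3 at 14.24, 16.76, 72.96, 30.44, 17.45 and 52.99 CPM. Both were highest in replicates 3 and 6, as Id2 was. Id1 was higher in null OC than in WT OC (1.57, edgeR adjusted p 0.00203; 0.79 without these 2 libraries, adjusted p 5.21e-04). Id3 had a value of -0.72 (adjusted p 0.101), which was -1.47 without them (adjusted p 1.20e-05). In BMM, Id3 was lower in null (-0.91, adjusted p 1.21e-05), as Id2 was. Over the list of the ID family, E proteins and Mitf, 7 genes could be tested in OC, of which 4 were higher and 2 lower in null. Among the partners described here, Tcf4 was higher (0.46) and Tcf12, an E protein, lower in null OC (-0.55, edgeR adjusted p 2.10e-06). Mitf, which encodes a basic helix-loop-helix factor that drives osteoclast genes, was also lower (-0.68).

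The genes whose profile was most like each member were found by Pearson's r of log2 CPM over the 36 libraries among 8948 genes with a mean of at least 10 CPM. The libraries share groups and depth, so these values only describe the profile. Irf8 was most like Rcsd1 (r = 0.987), A530064D06Rik (0.979) and Adam15 (0.977). Rbpj was most like Mospd2 (0.972) and Celf2 (0.971), and Bcl6 most like Prdx5 (0.926), Mapk3 (0.917) and Ethe1 (0.913). The nearest to Id2 were less alike: Ccl7 (0.815), Tnfsf9 (0.812) and Rab11a (0.804).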

How the data were processed

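RNA-seq libraries of 36 cultures were analysed (6 groups of 6). The deposited tables give, per Ensembl transcript, estimated counts and TPM, per the file headers; kallisto and DESeq2 are named in the submitters' processing notes, without version or parameters. The notes name GRCh38, a human build, whereas the identifiers are mouse transcripts. Strand handling is not given in the sources used here. The estimated counts, deposited by the authors, were summed per gene and rounded, and deposited TPM values were summed per gene. Of 88198 transcripts, 97.5% matched GENCODE M21 (GRCm38); the unmatched ones held 0.629 to 0.974% of counts and were left out.

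Counts were tested with edgeR 4.0.16 (R 4.3.3; filterByExpr, TMM scaling, robust quasi-likelihood fit; p adjusted by Benjamini-Hochberg across every gene tested, threshold 0.05). Genotypes were compared within a cell type over 12 libraries, the RANK-L response over the 24 BMM and OC libraries, and effects between OB and the others over all 36. Alternatives were DESeq2 1.42.0, limma 3.58.1 with voom or on log2(TPM + 1), RLE scaling, other filters, transcript-length offsets, a replicate block, each library left out and, chosen after seeing the data, null OC replicates 3 and 6 left out together. The code was tested on simulated counts. The members, lists and tests were chosen with earlier results of these data known. Genes named are the 4 members, every gene of lists of up to 5, up to 4 examples of longer lists (the smallest p in each direction) and the 3 genes most like each member; some genes under this rule are not reported here. Totals of 14118972 to 26347581 counts set the precision. Pseudogene copies of Rbpj held at most 4 counts in a library (0.0712% of Rbpj for Rbpj-ps3). Gm20388, which spans Irf8 on the same strand, held up to 826 counts in a library, and its annotated exons share 0 bases with those of Irf8. Gm37419, on the strand opposite to Bcl6, shares 21 exon bases with it, and without strand information reads there cannot be told apart.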

Additional observations from a re-analysis of the deposited data

Results flagged for a closer look

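The genotype effect of all 4 members differed between cell types by the interaction test (edgeR, adjusted p under 0.05), which brings these results here. No single library stood apart from its group of 6 by Dixon's test for any member; chance alone would mark about 1 group in 20. The test looks for 1 outlier and cannot mark 2 high libraries together, such as replicates 3 and 6 of null OC for Id2 (615.3 and 535.1 CPM, the others at most 322.6). For Irf8 the effect (null over WT, log2) was 3.16 higher in OC than in BMM and its difference of OB minus OC was -3.16. For Bcl6 it was 0.68 higher in OC than in BMM, and the differences of OB minus OC and OB minus BMM were -1.57 and -0.90. For Rbpj the same 3 differences were 0.64, -0.31 and 0.32. For Id2 the differences of OC minus BMM and OB minus OC were 1.70 and -1.45. Comparisons that involve OC share the null OC libraries, whose osteoclast markers were low, and the part of that in these differences was not tested.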

How the results depend on the processing

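Of the members' results under other settings, 329 kept their direction and side of the threshold, 16 changed direction, 4 newly passed and 7 no longer passed. With 1 library left out these numbers were 671, 25, 3 and 21. The number of genes called between genotypes in OB was 4420, and 2075 with a lowess offset for transcript length (1779 with the replicate block as well). Between null OC and null BMM it was 1628, and 1037 with voom. Leaving out a library gave 810 to 2143, with 810, 840 and 948 without null BMM replicates 3, 2 and 4 and 1046 without null OC replicate 3. Irf8 between null OC and null BMM was 0.28 on log2(TPM + 1) (limma adjusted p 0.0389). Irf8 for OB minus BMM, near 0, was 0.002 with RLE scaling and with DESeq2, 0.0 without a filter, 0.009 with a mean of 10 counts, 0.04 with voom, 0.145 with an average-length offset and 0.464 with TPM, and -0.03 to 0.057 with a library left out. Bcl6 in OB was 0.0 with TPM. Bcl6 between null OC and null BMM was -0.336 without a filter (edgeR adjusted p 0.0639), -0.319 with the replicate block (0.0647), -0.231 with TPM (0.136) and -0.328 with the average-length offset (0.0568), and -0.421 to -0.263 with a library left out. Rbpj in OC was 0.091 with TPM. Rbpj in OB was 0.159 with TPM, 0.005 with the average-length offset, -0.28 with the lowess offset and -0.283 with the replicate block added, and -0.057 to 0.03 with a library left out. Rbpj between null OC and null BMM was 0.004 with voom, 0.02 with TPM, 0.029 without null OC replicates 3 and 6, and -0.079 to 0.02 with a library left out. Rbpj was 0.068 with TPM for OB minus OC, and -0.08 with the lowess offset (-0.079 with the block) for OB minus BMM. Id2 in OB was -0.397 with TPM and with the lowess offset, and -0.679 to -0.496 with a library left out. Id2 between null OC and null BMM was 0.576 with the lowess offset, where it newly passed. With a library left out it was 0.32 to 0.623 and passed in 3 of 24 fits. Among listed genes, in OB Maml2 was -0.004 and Notch2 -0.018 with the lowess offset (-0.006 and -0.021 with the block), and Ncor1 in OC was -0.037 with TPM. The cause of these changes was not tested. Same-numbered libraries of different groups showed little correlation of their deviations from the group mean (highest 0.103, 1 pair above 0.1). At most 3 of 6 libraries correlated best with their own number, as for WT BMM with WT OC. The labels do not say whether a number marks cultures of 1 mouse, and these correlations cannot decide it. With the number as a block the counts of genes called were 5645 in BMM, 7556 in OC and 4085 in OB, against 6241, 7946 and 4420. Of the members' calls only that of Bcl6 between null OC and null BMM was lost. On the TPM scale the higher and lower calls were 4510 and 2878 for RANK-L in WT (3850 and 3813 with counts), 737 and 406 in null (859 and 769), 6641 and 2135 for OB minus OC (3973 and 3908) and 5653 and 1672 for OB minus BMM (3080 and 3463). For the listed genes, 118 values in 49 results no longer passed under other settings and 109 in 20 results with a library left out. The 7 Notch targets were below the filter on low counts in BMM and OC.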
